A study of Mus musculus with 12 samples.

Results

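The fatty acid binding and uptake proteins described here are 10 genes chosen by name, out of 56748 genes counted in fasted mouse livers. They are the cytosolic fatty acid binding proteins Fabp1, Fabp2, Fabp3, Fabp4, Fabp5 and Fabp7, the membrane receptor Cd36, and the fatty acid transport proteins Slc27a1, Slc27a2 and Slc27a4. All 10 were found in the table once by symbol. RNA-seq was run on 12 livers, 4 per genotype, all taken after a fast of 24 h. The WT livers came from floxed controls, labelled as triple floxed for CPT1A, CPT1B and CPT2. For RT-qPCR of the same knockouts the study describes controls floxed for Atf3 and Cpt2, so the labelled WT livers may be of another floxed line, and line and genotype cannot be told apart in the comparisons with WT. The SKO livers are labelled as a liver-specific KO of CPT2, and the DKO livers as a liver-specific double KO of ATF3 and CPT2. The study's floxed lines use an albumin-Cre transgene, which is active in hepatocytes, so other cells of the liver keep the floxed genes. The labels give neither age nor sex for each liver, the study describes the mice of this experiment as male, and nothing in them says how the animals of a genotype are related.

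Long-chain fatty acids that adipose tissue releases in a fast reach the liver bound to albumin. Cd36 and the Slc27a proteins help them enter the cell, and the Slc27a proteins are also acyl-CoA synthetases that trap them as CoA esters. Inside the cell the Fabp proteins carry these poorly soluble lipids through the cytosol to mitochondria, peroxisomes, lipid droplets and nuclear receptors. Each Fabp has a home tissue, with Fabp1 in liver and intestine, Fabp2 in intestine, Fabp3 in heart and muscle, Fabp4 in adipocytes and macrophages, Fabp5 in skin and macrophages, and Fabp7 in brain. Cpt2, carnitine palmitoyltransferase 2, sits on the inner mitochondrial membrane and is required for long-chain fatty acids to be oxidized there. Atf3 is a stress-induced transcription factor. Several of the genes described here are textbook targets of PPARα or PPARγ, the nuclear receptors that bind fatty acids.

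The libraries held 14710304 to 20030055 gene counts each, and a count of 0 allows a level of up to 0.145 to 0.196 CPM (counts scaled to a common library size). Cpt2 was at 199 to 252 CPM in WT livers, 108 to 157 CPM in SKO livers and 101 to 127 CPM in DKO livers. Atf3 was at 1.11 to 2.16 CPM in WT, 14.5 to 53.4 CPM in SKO, and 7.92 to 13.6 CPM in DKO replicates 1 to 3, so that Atf3 RNA in these DKO livers lay above every WT liver. DKO replicate 4 had 5 Atf3 counts, or 0.270 CPM. Counts over the whole gene cannot show whether a deleted exon is missing. SKO replicate 3 and DKO replicate 4 had 18063 and 20855 counts of Xist, with 2 and 0 counts of 4 Y-linked genes, while the other 10 livers had at most 19 counts of Xist. This pair of livers goes against the description of the mice as male, and the values that they moved most are also given without them.

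In WT livers the 10 genes covered a wide range of levels, compared here as FPKM, a level per gene length. Fabp1 was the most abundant, at 3000 ± 335 FPKM (SD, n = 4), and ranked between 20 and 26 among all genes of the table in these livers. Slc27a2, a very long-chain acyl-CoA synthetase of the endoplasmic reticulum and peroxisomes, followed at 675 ± 71.1 FPKM, and Fabp2 at 93.8 ± 9.90 FPKM. Slc27a4 at 12.0 ± 1.80, Cd36 at 11.1 ± 2.36 and Slc27a1 at 9.22 ± 4.43 FPKM came next and overlapped each other. Below them were Fabp7 at 3.02 ± 1.05, Fabp4 at 1.63 ± 0.480 and Fabp5 at 0.723 ± 0.262 FPKM. Fabp3 was last, at 0.127 ± 0.102 FPKM, and rested on 1 to 4 counts per WT liver. Thus Fabp1 made up 96.3 to 97.3% of the summed FPKM of the 6 Fabp genes in WT livers, and Fabp2 made up 2.59 to 3.43%.

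The deposited length of Fabp4 is 4489 bases, the whole locus with its introns, whereas its coding transcript in GENCODE M21 has 896 bases. The lengths given for Fabp5, 3567 against 987 bases, and Slc27a1, 5835 against 2795 bases, are also longer than the longest coding transcript. With the longest coding transcript as the length, Fabp4 reached 8.16 FPKM and Fabp5 2.61 FPKM in WT livers. Fabp4 then lay above Fabp7, at 4.29 FPKM, and Slc27a1, at 19.2 FPKM, moved ahead of Slc27a4 and Cd36 by its mean. This alternative was chosen after the data had been seen. Fabp1, Slc27a2 and Fabp2 kept the 3 highest positions in all 3 genotypes under both lengths, and Fabp3 was the lowest in WT under both. In the tests that follow each gene is compared with itself, so length plays no part, whereas the shares of summed Fabp FPKM depend on the deposited lengths.

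**Figure D1:**
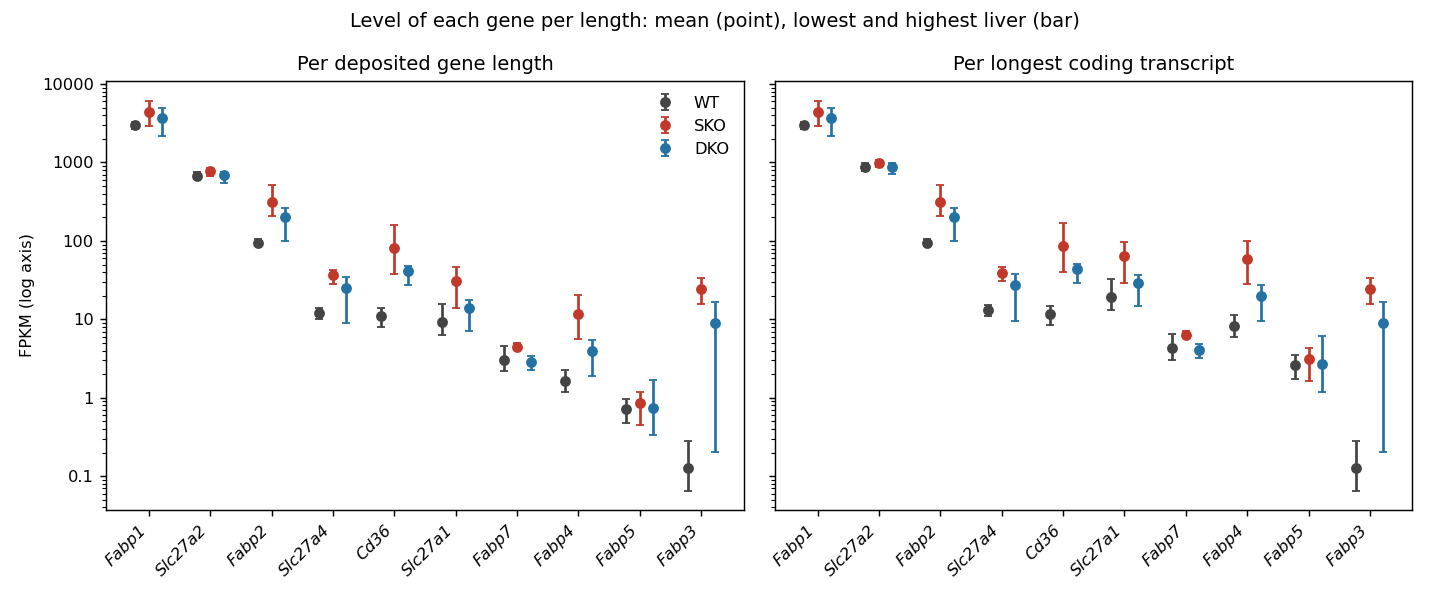
FPKM of the 10 genes on a log axis, per deposited gene length on the left and per longest coding transcript on the right, with the mean (point) and the lowest and highest of 4 livers (bar) for each genotype. Fabp1 stands above 2000 FPKM in every liver, and Fabp3 moves from 0.127 FPKM in WT to 24.4 FPKM in SKO livers.

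The comparison of SKO with WT livers addresses how loss of fatty acid oxidation in the liver changes these genes in a fast. In all, 6 of the 10 genes rose and none fell (edgeR, adjusted p under 0.05 over all genes tested), where 32.1% of the 14261 genes tested were called, 16.7% higher in SKO and 15.4% lower. The 6 were Fabp3, Cd36, Fabp4, Fabp2, Slc27a1 and Slc27a4. Fabp1, Fabp5, Fabp7 and Slc27a2 did not pass the test. The median log2 fold change of the 10 genes was 1.68, beside 0.03 over all genes tested. The 10 genes together took 0.374 to 0.427% of all counts in WT and 0.503 to 0.750% in SKO livers. The livers are bulk samples, in which fewer cells of a type and less RNA per cell cannot be told apart.

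Fabp3, the heart and muscle form (ENSMUSG00000028773; chromosome 4, 130202388 to 130209256 as deposited), changed most. The WT livers had 0.0520, 0.0636, 0.0652 and 0.221 CPM of Fabp3. The SKO livers had 25.0, 12.3, 26.9 and 13.1 CPM. No SKO liver came near any WT liver, and the SKO livers fell into a pair at 12.3 to 13.1 and a pair at 25.0 to 26.9 CPM. The fitted log2 fold change was 7.48 ± 0.46 (SE, n = 4 against 4; edgeR adjusted p = 1.4e-06), and it was 8.17 without WT replicate 4, which held 4 of the WT counts. Because the WT livers held 7 Fabp3 counts in all against 1388 in the SKO livers, the ratio of summed counts is given as well, at 187 with an exact 95% counting interval of 90.3 to 465. Fabp3 overlaps Zcchc17, a protein-coding gene on the opposite strand with 172 to 343 counts per liver, and 37.3% of its 50-base windows also occur in transcripts of other genes, led by the pseudogene Fabp3-ps1. Fabp3-ps1 itself had 0 to 20 counts per liver.

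Fabp4, the adipocyte form, also called aP2 (ENSMUSG00000062515; chromosome 3, 10269148 to 10273636 as deposited), was low in WT livers, at 9.68, 5.73, 7.56 and 5.09 CPM. In the SKO livers it was at 31.3, 86.1, 59.0 and 24.8 CPM. Every SKO liver was above every WT liver, as for 16.4% of all genes tested, with SKO replicates 2 and 3 highest. Fabp4 rose by 2.85 ± 0.38 on the log2 scale (edgeR adjusted p = 0.00019), a 7.22-fold change. None of its 50-base windows occurs in the transcripts of another gene.

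Fabp2, the intestinal form (ENSMUSG00000023057; chromosome 3, 122688721 to 122693155 as deposited), was at 88.7, 79.5, 98.6 and 80.3 CPM in WT livers. It was at 191, 478, 202 and 295 CPM in SKO livers. The groups did not overlap, and SKO replicate 2 was the highest, as it was for Fabp1 and Fabp4. Fabp2 rose by 1.76 ± 0.26 on the log2 scale (edgeR adjusted p = 0.00040). Its share of the summed Fabp FPKM went from 2.59 to 3.43% in WT livers to 4.72 to 9.61% in SKO livers.

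Fabp1, the liver form, is the carrier that hepatocytes already hold in plenty. It was at 1426, 1458, 1755 and 1728 CPM in WT livers and at 2124, 3239.8, 2313 and 1574 CPM in SKO livers. SKO replicate 4 lay within the WT range and the other 3 SKO livers lay above it. The log2 fold change was 0.56 ± 0.21 and narrowly missed the threshold (edgeR adjusted p = 0.058). It passed in 3 of 15 alternatives, namely with DESeq2 (adjusted p = 0.036, where 26.6% of genes were called), without the filter on low counts (adjusted p = 0.025) and without SKO replicate 4 (log2 0.71, adjusted p = 0.013). In the other 12 the adjusted p reached up to 0.16, and without SKO replicate 2, the highest liver, the log2 fold change was 0.35 (adjusted p = 0.15).

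Fabp5, the epidermal form, and Fabp7, the brain form, stayed low in every liver. Of the 50-base windows of Fabp5, 5.48% also occur in other transcripts, including its pseudogene Fabp5l2, which had at most 2 counts per liver. Fabp5 was at 1.63 to 3.33 CPM in WT and 1.56 to 4.05 CPM in SKO livers (log2 0.28 ± 0.34; edgeR adjusted p = 0.59). Fabp7 was at 2.60 to 5.46 CPM in WT and 4.92 to 5.87 CPM in SKO livers (log2 0.55 ± 0.25; edgeR adjusted p = 0.12). WT replicate 1, at 5.46 CPM, was the only WT liver within the SKO range of Fabp7, and without it the log2 fold change was 0.80 (edgeR adjusted p = 0.020).

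**Figure D2:**
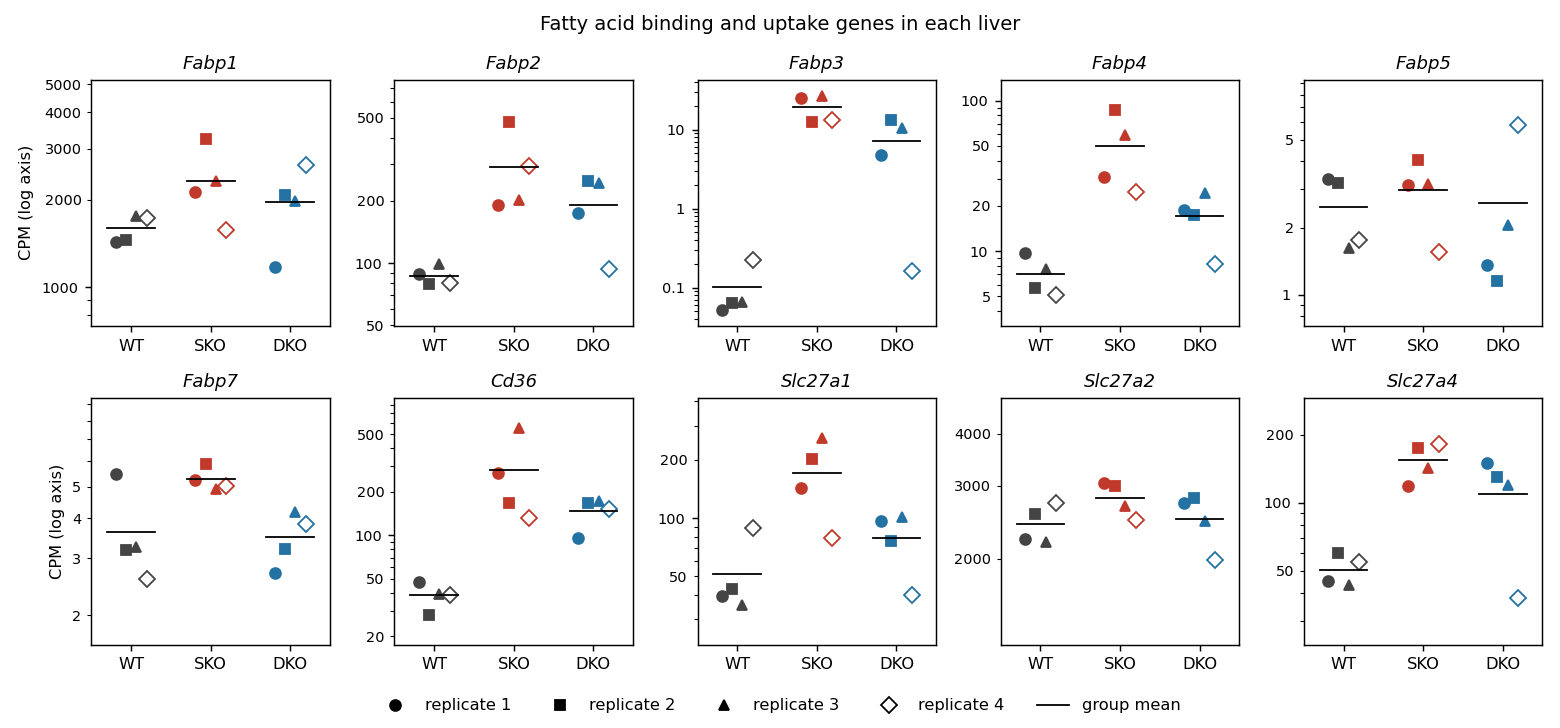
CPM of each of the 10 genes in each of the 12 livers on log axes of differing range, with a symbol for each replicate number and a line at the group mean. SKO livers lie above every WT liver for Fabp2, Fabp3, Fabp4, Cd36 and Slc27a4, and DKO replicate 4 (open blue diamond) lies near the WT livers for Fabp2, Fabp3, Fabp4, Slc27a1 and Slc27a4 but not for Cd36.

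Among the membrane proteins, Cd36, the scavenger receptor and fatty acid translocase (ENSMUSG00000002944; chromosome 5, 17986688 to 18093799 as deposited), changed most. It was at 47.8, 28.0, 39.1 and 38.3 CPM in WT livers. It was at 271, 166, 556 and 132 CPM in SKO livers. Every SKO liver exceeded every WT liver, and SKO replicate 3, a liver with Xist counts, was higher than any other liver of the series. Cd36 rose by 2.89 ± 0.40 on the log2 scale (edgeR adjusted p = 0.00025), and by 2.33 without SKO replicate 3 (adjusted p = 5.2e-05).

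Slc27a4, or FATP4, a long-chain acyl-CoA synthetase of intestine and many other tissues (ENSMUSG00000059316; chromosome 2, 29692646 to 29707534 as deposited), was at 45.2, 59.6, 43.2 and 54.5 CPM in WT livers. It was at 119, 175, 142 and 181 CPM in SKO livers, which did not overlap the WT livers. The log2 fold change was 1.62 ± 0.16 (edgeR adjusted p = 3.0e-05), with the smallest error among the 6 genes that rose.

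Slc27a1, or FATP1, the main form of muscle and adipose tissue (ENSMUSG00000031808; chromosome 8, 72021526 to 72039946 as deposited), was at 39.4, 42.9, 35.5 and 88.5 CPM in WT livers. It was at 142, 202, 260 and 78.8 CPM in SKO livers. The groups overlapped, because WT replicate 4 was above SKO replicate 4. Slc27a1 rose by 1.74 ± 0.37 on the log2 scale (edgeR adjusted p = 0.0036), by 2.12 without WT replicate 4 and by 1.48 without SKO replicate 3, the highest liver (adjusted p = 0.0073).

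Slc27a2, or FATP2, the most abundant of the transport proteins in these livers, was at 2228, 2571, 2199.7 and 2730.1 CPM in WT livers and at 3045, 3002, 2679 and 2475 CPM in SKO livers. The ranges overlapped, and the log2 fold change of 0.22 ± 0.14 did not pass the test (edgeR adjusted p = 0.27). Slc27a2 shares 9.80% of its 50-base windows with the transcripts of Gm26697. The 6 genes that rose were called in each of the 15 alternative settings tried, and Fabp5 and Slc27a2 in none of them. The settings without SKO replicate 3 and with only livers with Y-linked counts are the same fit, counted under both names.

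**Figure D3:**
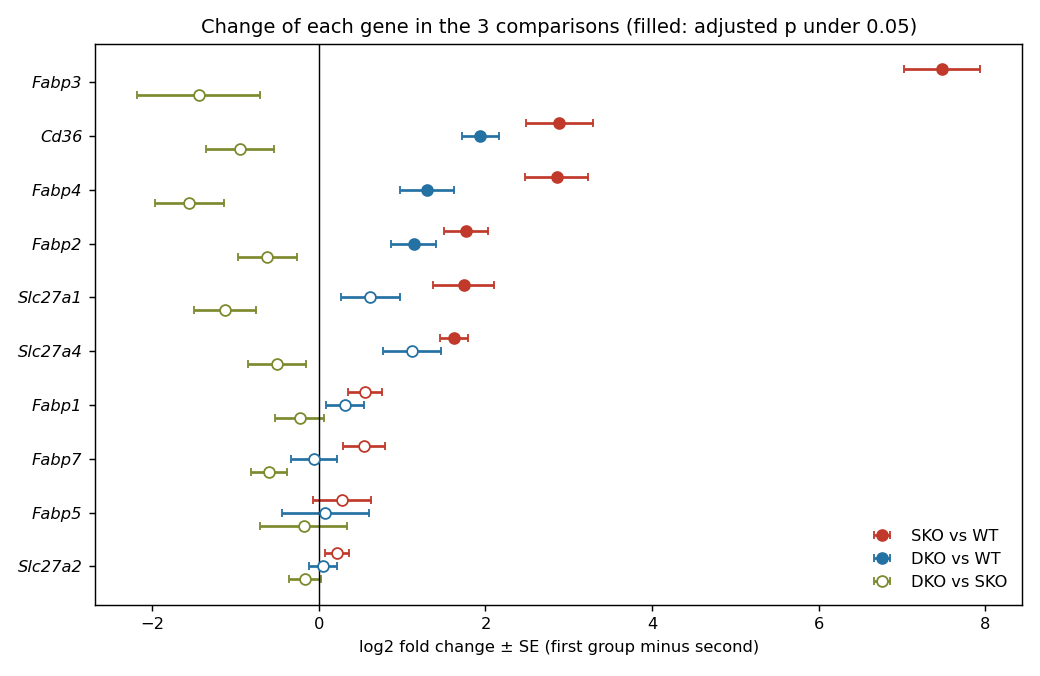
Log2 fold change of each gene with its standard error in SKO against WT (red), DKO against WT (blue) and DKO against SKO livers (green), 4 livers per genotype. Filled points passed an adjusted p of 0.05, and Fabp3 has no blue point because its counts did not pass the filter in that comparison.

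Since Fabp3, Fabp4, Fabp2, Cd36 and Slc27a1 are also genes of other cell types, markers of those cells were counted in the same livers. Of 8 adipocyte markers, 2 had enough counts for the edgeR test, of which Pck1, which hepatocytes also express, was lower in SKO and Lipe did not pass. Lipe, hormone-sensitive lipase, which is not confined to adipocytes, was at 14.6 to 24.2 CPM in WT, 12.4 to 20.2 CPM in SKO and 13.1 to 16.4 CPM in DKO livers. Of the markers secreted by adipocytes, Lep was at 0 in all 12 livers, Retn at 0 to 0.0636 CPM, Adipoq at 0 to 0.277 CPM and Cfd at 0 to 0.448 CPM. Plin1, a lipid droplet protein, was at 0 in WT livers and at 0.192 to 0.558 CPM in SKO livers, and was called higher in SKO by DESeq2 (adjusted p = 0.0032). With Pck1 the summed level of the list was 5687 to 7718 CPM in WT, 2046 to 4607 CPM in SKO and 2823 to 6449.6 CPM in DKO livers. Pck1 alone was at 5670 to 7703 CPM in WT, 2033 to 4586 CPM in SKO and 2808 to 6433 CPM in DKO livers. This sum therefore follows Pck1 and not the other adipocyte markers. The 7 muscle markers summed to 0.572 to 1.44 CPM in WT, 0.512 to 1.57 CPM in SKO and 0.676 to 1.08 CPM in DKO livers, and 1 or 2 of them had no count in a genotype. The 7 enterocyte markers summed to 0.191 to 0.940 CPM in WT, 0.0518 to 0.167 CPM in SKO and 0 to 0.242 CPM in DKO livers, and Sis, Cdx2 and Fabp6 had no count in any liver.

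Of 11 macrophage markers tested in SKO against WT, 2 rose, namely Cd68 (log2 2.28) and Gpnmb (log2 7.24), a pair of lysosomal glycoproteins. Gpnmb was at 0 to 0.509 CPM in WT and 26.3 to 54.1 CPM in SKO livers, and Cd68 was at 5.67 to 11.1 CPM and 24.1 to 54.1 CPM. The summed level of the 12 macrophage markers was 254 to 508 CPM in WT, 259 to 597 CPM in SKO and 159 to 242 CPM in DKO replicates 1 to 3, with 528 CPM in DKO replicate 4. The Kupffer cell receptor Clec4f was at 66.4 to 115 CPM in WT and 52.1 to 101 CPM in SKO livers. None of 10 endothelial markers passed the edgeR or the DESeq2 test in SKO against WT or had an unadjusted p under 0.05, and their summed level was 225 to 486 CPM in WT, 326 to 410.4 CPM in SKO and 282 to 388 CPM in DKO livers. Of 8 stellate cell markers 1 rose (Dcn, log2 0.61), of 4 cholangiocyte markers tested 2 fell, and of 8 hepatocyte markers 4 fell, with Alb at log2 -0.89. Over all genes 16.7% were higher and 15.4% lower, and the counts of macrophage and stellate cell markers that rose were near that share. The summed hepatocyte markers were at 87932 to 109043 CPM in WT and 52580.3 to 83255 CPM in SKO livers. Alb alone was at 51883 to 65501 CPM in WT and 22221 to 44343 CPM in SKO livers. The part of these cell types in the changes of Fabp4, Cd36 and the other genes was not tested.

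Because several of the 6 genes are textbook PPAR targets and rose together, the 250 bases upstream of each start site were searched for PPAR and stress-factor motifs on both strands. RefSeq promoters of build GRCm38.p6 were matched by symbol for 8 of the 10 genes, with 10 windows since Slc27a1 has 3. Fabp4 and Fabp5 are not among them. The promoters of Fabp1, the abundant gene, and of Fabp2, Fabp3 and Cd36, which rose, are shown 5′ to 3′, with each motif match in capitals. They lie at chr6:71199629-71199878 on the + strand for Fabp1, chr3:122894822-122895071 on the + strand for Fabp2, chr4:130308488-130308737 on the + strand for Fabp3 and chr5:17835897-17836146 on the - strand for Cd36.
Fabp1: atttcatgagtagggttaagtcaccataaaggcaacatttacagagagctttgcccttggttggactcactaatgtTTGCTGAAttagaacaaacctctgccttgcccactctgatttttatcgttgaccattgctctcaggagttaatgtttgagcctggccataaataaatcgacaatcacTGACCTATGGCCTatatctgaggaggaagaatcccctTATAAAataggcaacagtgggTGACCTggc
Fabp2: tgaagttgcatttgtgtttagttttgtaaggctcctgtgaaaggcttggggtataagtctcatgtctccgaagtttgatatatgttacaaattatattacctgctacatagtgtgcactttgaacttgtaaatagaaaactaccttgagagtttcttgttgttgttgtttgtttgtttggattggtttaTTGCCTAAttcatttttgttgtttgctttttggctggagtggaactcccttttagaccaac
Fabp3: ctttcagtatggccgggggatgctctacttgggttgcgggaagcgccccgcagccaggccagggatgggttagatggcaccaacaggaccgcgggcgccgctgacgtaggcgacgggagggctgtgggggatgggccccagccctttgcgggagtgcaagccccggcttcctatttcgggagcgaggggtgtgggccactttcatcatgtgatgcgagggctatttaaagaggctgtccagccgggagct
Cd36: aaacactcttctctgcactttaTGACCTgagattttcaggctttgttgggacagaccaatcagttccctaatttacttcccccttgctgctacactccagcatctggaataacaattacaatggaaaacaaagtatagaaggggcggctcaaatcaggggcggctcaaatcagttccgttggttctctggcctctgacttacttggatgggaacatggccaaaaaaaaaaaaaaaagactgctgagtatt

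A relaxed PPAR response element, a repeat of AGGNCA in the same direction after 1 base, was found only in the Fabp1 window among the 10, at 67 to 55 bases upstream and read on the minus strand, and in 0.338% of all 32851 promoter windows of that length. It contains the nuclear receptor core motif AGGTCA, which also occurred closer to the start site in Fabp1, and in Cd36, Fabp7 and Slc27a2, against 14.0% of all windows. The strict element, the same repeat of AGGTCA, was in none of the 10 and in 0.0335% of all windows. The C/EBP motif TTGCNNAA was in Fabp1 and Fabp2 and in 9.56% of all windows, and the TATA box TATAAA was in Fabp1, 30 to 25 bases upstream, and in 12.4%. The cAMP response element TGACGTCA (1.55% of all windows), the AP-1 motif TGANTCA (6.75%) and the HNF1 motif, GTTAAT and ATTAAC with 1 base between (0.00913%), had no match in the 10 windows. The windows of Fabp3 and of Slc27a1 and Slc27a4 held none of these motifs, which says only that these letters are not in them.

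In the comparison of DKO with WT livers, which share the WT livers with the comparison above, 3 of the 9 genes tested rose and none fell, where 10.5% of 14448 genes were called and 6.06% were higher in DKO. The 3 were Cd36, Fabp4 and Fabp2. The median log2 fold change over the 9 genes was 0.62, beside 0.03 over all genes tested. The 10 genes took 0.469 to 0.587% of all counts in DKO livers.

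Cd36 was at 95.4, 167, 172 and 151 CPM in DKO livers, all above the WT livers, as for 8.04% of all genes tested. It rose by 1.94 ± 0.22 on the log2 scale (edgeR adjusted p = 0.0048) and was called in each of 15 alternatives. Fabp4 was at 18.9, 17.4, 24.2 and 8.27 CPM in DKO livers, of which replicate 4 lay within the WT range. It rose by 1.30 ± 0.32 on the log2 scale (edgeR adjusted p = 0.037). Fabp2 was at 174, 249, 244 and 94.1 CPM in DKO livers, again with replicate 4 within the WT range, and rose by 1.14 ± 0.27 (edgeR adjusted p = 0.032). The calls of Fabp2 and Fabp4 were lost when any of the 4 WT livers or DKO replicates 1, 2 or 3 was left out, with adjusted p-values of 0.061 to 0.096 for Fabp2 and 0.062 to 0.11 for Fabp4. All genes called fell to between 244 and 719 in the same 7 fits.

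Fabp3 was at 4.83, 13.4, 10.4 and 0.162 CPM in DKO livers, or 100, 221, 202 and 3 counts. It had too few counts in WT livers and in DKO replicate 4 to pass the filter, so it has no test in this comparison. Without the filter its log2 fold change was 6.04 (edgeR adjusted p = 0.0016), and with DESeq2, which called 14.4% of genes, it was 6.14 (adjusted p = 3.1e-05). With a filter at a mean of 1 CPM it was 6.05 (edgeR adjusted p = 0.019), and in the fit of all 12 livers 6.04 (edgeR adjusted p = 0.0052). In the fits that leave out WT replicate 1, 2 or 4, where it could be tested, it missed the threshold (edgeR adjusted p = 0.062, 0.064 and 0.052), and without WT replicate 3 it passed (0.049). DKO replicates 1 to 3 had 90.2 times the Fabp3 of WT livers, with an exact 95% counting interval of 43.5 to 226. DKO replicate 4 had 1.58 times the WT level, with an interval of 0.264 to 6.94 that includes no difference.

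Slc27a4 was at 149, 130.1, 120 and 37.7 CPM in DKO livers, where replicate 4 lay below every WT liver (log2 1.12 ± 0.35; edgeR adjusted p = 0.068). Slc27a4 passed in 5 of 15 alternatives, among them DESeq2 (adjusted p = 0.019, where 14.4% of genes were called). Slc27a1 was at 96.8, 76.3, 101 and 39.9 CPM (log2 0.62 ± 0.35; adjusted p = 0.27). Fabp1 was at 1175, 2070.0, 1983 and 2635 CPM, so that DKO replicate 1 was the lowest and replicate 4 the highest of the genotype (log2 0.31 ± 0.23; adjusted p = 0.40). Slc27a2 was at 1991 to 2795 CPM, Fabp5 at 1.15 to 5.84 CPM, with replicate 4 the highest of all 12 livers, and Fabp7 at 2.71 to 4.17 CPM, with adjusted p-values of 0.87, 0.94 and 0.92. The log2 fold change of Fabp5 was 0.08, and it was -0.69 without replicate 4 (adjusted p = 0.16).

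DKO replicate 4, which has Xist counts and 5 Atf3 counts, was the lowest or highest DKO liver for most of these genes. The outlier test given below flagged no DKO group. Without it 6 of 10 genes rose in DKO against WT, where 35.9% of 14634 genes were called. These were Cd36, Fabp2, Fabp3, Fabp4, Slc27a1 and Slc27a4. Slc27a4 then had a log2 fold change of 1.40 (edgeR adjusted p = 2.0e-05), Slc27a1 0.83 (adjusted p = 0.034) and Fabp3 6.45 (adjusted p = 5.4e-06), while Fabp2 was at 1.36 and Fabp4 at 1.52. Cd36 was hardly moved, at 1.92. Fabp3 in DKO replicates 1 to 3 was 57.0 times that of replicate 4, with an exact 95% counting interval of 19.4 to 277. The summed hepatocyte markers of DKO replicate 4 were at 108453 CPM, within the WT range. Those of DKO replicates 1 to 3 were at 52268.7 to 63743 CPM. Alb, at 75278 CPM, made up most of the sum in replicate 4. There Alb and Ttr lay above every WT liver, while Apoa1, Apob, Cps1 and Hnf4a lay below every WT liver. Tat and Cyp2e1 lay within the WT range. At 101 CPM, the Cpt2 level of DKO replicate 4 was the lowest of all livers. Macrophage markers also set this liver apart. In DKO against WT with all livers, Gpnmb rose (log2 5.59) and Marco fell by 1.95 among 12 markers, where 6.06% of all genes were higher and 4.39% lower. Without DKO replicate 4, Gpnmb (log2 5.99) and Cd68 (1.28) rose and 8 fell, with Clec4f at -0.76 and Csf1r at -1.07, and the median of the 12 was -0.96 beside 0.02 over all genes. In that fit 18.4% of all genes were higher and 17.5% lower. The part of macrophages in the DKO values of Fabp4, Fabp5 and Cd36 was not tested. The share of Fabp2 in the summed Fabp FPKM was 2.00% in DKO replicate 4 and 6.40 to 7.78% in DKO replicates 1 to 3.

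**Figure D4:**
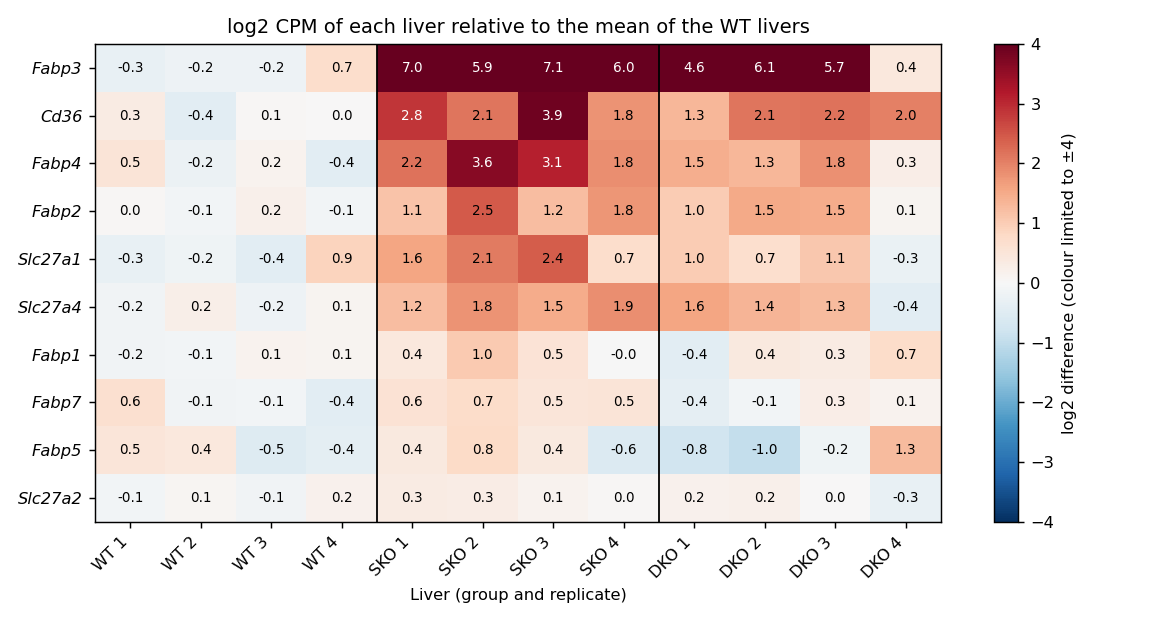
Log2 CPM of each gene (rows) in each liver (columns) relative to the mean of the 4 WT livers, computed with a prior count of 2, with the value printed in each cell and colours limited to ±4. Columns SKO 1 to SKO 4 and DKO 1 to DKO 3 are red for the 6 upper genes, and DKO 4 is near WT for all of these except Cd36.

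The comparison of DKO with SKO livers asks what the added KO of Atf3 does in livers with the Cpt2 KO. None of the 10 genes passed the edgeR test, where 0.0209% of 14363 genes did. At an unadjusted p under 0.05 there were 4 of 10, against 6.49% of all genes tested, and DESeq2 called 1, Fabp4, where it called 0.542% of genes. The fitted difference was below 0 for each of the 10 genes, with a median of -0.61 on the log2 scale beside 0.01 over all genes. With DKO replicate 4 left out there were 6 of 10 at an unadjusted p under 0.05, against 7.22% of all genes, with a median of -0.78, and none passed the edgeR test.

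Fabp4 had the largest difference, at log2 -1.55 ± 0.42 (edgeR adjusted p = 0.45, DESeq2 adjusted p = 0.027). Its highest DKO liver, at 24.2 CPM, was below its lowest SKO liver, at 24.8 CPM. Fabp7, at log2 -0.59 ± 0.22, was the other gene whose DKO and SKO livers did not overlap, with 4.17 CPM as the highest DKO and 4.92 CPM as the lowest SKO value (edgeR adjusted p = 0.68). DKO livers lay below every SKO liver for 1.68% of all genes tested. Without DKO replicate 4, Fabp4 was at log2 -1.33 (edgeR adjusted p = 0.35). Macrophage markers, which mark cells that can express Fabp4, were lower in the same comparison by median, at log2 -0.45 with all livers and -1.03 without DKO replicate 4. None of the 12 passed the edgeR or DESeq2 test with all livers, and 3 of them had an unadjusted p under 0.05. Without DKO replicate 4, 9 had one, where 7.22% of all genes did, and again none passed the edgeR test. Their part in the Fabp4 difference was not tested.

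Fabp3 was at log2 -1.44 ± 0.74 (edgeR adjusted p = 0.79) with all DKO livers, at -1.03 without replicate 4, and at -0.83 without replicate 4 and SKO replicate 3. Slc27a1 was at -1.13 ± 0.38 (adjusted p = 0.62) and, without the same pair of livers, at -0.63. Cd36 was at -0.95 ± 0.41 (adjusted p = 0.75), Fabp2 at -0.62 ± 0.35 (adjusted p = 0.82) and Slc27a4 at -0.50 ± 0.35 (adjusted p = 0.87). For Cd36 the difference was -0.38 on the log2 scale when SKO replicate 3 was left out, since that liver alone was at 556 CPM. Fabp1 at -0.23 ± 0.30, Fabp5 at -0.18 ± 0.52 and Slc27a2 at -0.17 ± 0.19 were closest to 0. For Fabp5 this rested on DKO replicate 4, without which its difference was -0.97 (adjusted p = 0.58). A difference that missed the threshold in 4 against 4 livers does not show that DKO and SKO livers were alike.

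Several further members of the Fabp family had almost no counts. Fabp6, Fabp9, Pmp2, Crabp1 and Crabp2 had no count in any of the 12 livers, and Fabp12 had at most 3 counts.

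Of 23 other genes of fatty acid uptake and binding, 2 rose and 8 fell in SKO against WT, where 16.7% of all genes tested were higher and 15.4% lower, with a median log2 fold change of -0.11 beside 0.03 over all genes. Slc27a5, or FATP5, a bile acid-CoA synthetase and fatty acid transporter of hepatocytes, fell by 1.07 on the log2 scale, from 745 to 1001 CPM in WT to 360.4 to 490.2 CPM in SKO livers. Scarb1, the HDL receptor and relative of Cd36, fell by 1.77. Angptl8, a secreted regulator of lipoprotein lipase, fell by 1.48, and Lipc, the hepatic lipase, fell by 1.11. Among acyl-CoA binding proteins, Acbd4 fell by 0.53 and Acbd5 fell by 0.59, while Acbd3 rose by 0.60 and Acbd6 by 0.58. The thioesterase Lypla1 fell by 0.55. Lpl (log2 -0.57, adjusted p = 0.11), Mfsd2a (0.62, adjusted p = 0.070), Dbi (0.21) and Scp2 (0.10) did not pass the test. In DKO against WT 2 of the 23 rose and 3 fell, where 6.06% of all genes were higher and 4.39% lower, and without DKO replicate 4 these were 3 and 9, where 35.9% of all genes were called.

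Among 16 nuclear receptors and partner factors of the PPARs, 3 rose and 2 fell in SKO against WT, a share close to the 32.1% called over all genes. Pparg, the adipocyte form, rose by 1.48 on the log2 scale, from 7.30 to 8.69 CPM in WT to 20.3 to 25.4 CPM in SKO livers. Ppara, the main hepatic form, was at 178 to 261 CPM in WT and 166 to 328 CPM in SKO livers and did not pass the test (log2 0.23; edgeR adjusted p = 0.48). Rxrb (log2 0.95) and Nr1h2 (0.43) also rose, while Rxra fell by 0.62 and Foxa2 fell by 0.73. Pparg was at 13.8 to 22.4 CPM in DKO livers and rose by 1.27 against WT, where 2 of the 16 rose and 2 fell, beside 6.06% of all genes higher and 4.39% lower. Without DKO replicate 4, 3 rose (Pparg, Rxrb and Nr1h2) and 4 fell (Rxra, Foxa2, Cebpa and Ppargc1b), against 35.9% called over all genes.

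Of 20 further textbook PPARα targets 15 rose and none fell in SKO against WT, where 16.7% of all genes were higher and 15.4% lower, with a median log2 fold change of 1.01. Without SKO replicate 3, 13 rose, where 17.3% of all genes were higher, and Cpt1a and Slc25a20 no longer passed (adjusted p = 0.060 and 0.059). Pdk4, which inhibits pyruvate dehydrogenase, rose by 6.54, from 5.73 to 12.6 CPM in WT to 514 to 925 CPM in SKO livers. The mitochondrial thioesterase Acot2 rose by 4.89, the lipid droplet protein Plin2 by 3.15 and the peroxisomal enzyme Ehhadh by 2.73. Among those that did not pass the test were Angptl4, Acaa2, Acadm and Creb3l3. Fabp1, at log2 0.56, lay nearer to Cyp4a10 (0.59) and Cpt1a (0.45) than to Pdk4. In DKO against WT 8 of the 20 rose and none fell, where 6.06% of all genes were higher. In the fit without DKO replicate 4 there were 13 that rose and 2 that fell, where 18.4% of all genes were higher and 17.5% lower.

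Of 7 tested genes of PPARγ in fatty liver 5 rose in SKO against WT, where 16.7% of all genes were higher, and Acot11 fell by 1.84. The lipid droplet proteins Cidec (log2 4.34) and Plin4 (4.00) rose most, followed by Plin5 (1.77), Ucp2 (1.23) and Mogat1 (1.18). DESeq2 also called Plin1 and Cidea higher, which had too few counts for the edgeR test. In DKO against WT 3 of the 7 rose and none fell, where 6.06% of all genes were higher. Leaving out DKO replicate 4 gave 4 that rose, where 18.4% of all genes were higher, while Acot11 fell by 1.65 and Lpl fell by 0.92. Cidec was at 32.8 CPM in DKO replicate 4 and at 335 to 442 CPM in the other DKO livers, so that replicate 4 was the lowest DKO liver for it as for Fabp3 and Fabp4. In DKO against SKO livers none of the genes of these lists passed the edgeR or DESeq2 test, and at an unadjusted p under 0.05 there were 2 of 23 uptake genes, 0 of 16 receptors, 4 of 20 PPARα targets and 0 of 7 PPARγ genes, where 6.49% of all genes had one.

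The genes whose levels ran closest to those of the 10 genes over the 12 livers were named by Pearson's r of log2 CPM, as a description of livers that share their genotype differences. For Fabp3 these were Aldh3a2 (r = 0.99), which oxidizes fatty aldehydes, Clstn3 (0.98) and Uap1l1 (0.98). For Cd36 they were Spdye4c (0.95), Dgkh (0.95) and Aqp7 (0.94), a glycerol channel, and for Fabp4 Kirrel (0.95), Rnf220 (0.95) and Pnpla2 (0.95), the adipose triglyceride lipase. For Fabp2 they were Rpl10a (0.99), Psmb5 (0.98) and Rps9 (0.98), and for Slc27a4 Psmd8 (0.99), Tor1a (0.98) and Nhp2 (0.98). With the genotype means subtracted, Aldh3a2 (0.95) and Clstn3 (0.94) remained among the 3 closest genes to Fabp3, and Rpl10a (0.96) and Psmb5 (0.95) among those to Fabp2. The 3 genes closest to Cd36 were then Rassf4 (0.89), Dync2h1 (0.89) and Aim2 (0.89), and those closest to Slc27a4 Ddx28, Sbf1 and Arhgdia (each 0.97). All are the highest r values among 13071 genes. Subtracting genotype means leaves the gap between DKO replicate 4 and the other DKO livers. Against the WT mean, Fabp3 was at log2 0.43 in DKO replicate 4 and 4.61 to 6.06 in DKO replicates 1 to 3. For Slc27a4 these values were -0.41 and 1.25 to 1.57. These r values can therefore rest largely on 1 liver.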

How the data were processed

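RNA of frozen livers was purified (TRIzol, then RNeasy) and sequenced by Novogene. The authors deposited raw read counts per Ensembl gene and a table of FPKM. Their processing notes name HISAT2 and GRCm38 (mm10), without the role of each, and the counting program is not given in the sources used here. The gene positions in the table matched GENCODE M21 (GRCm38) for 1435 of 52073 genes and for 0 of the 10 genes described, and the table names no build, so positions are printed as deposited and were not converted. The deposited FPKM equal counts per kilobase divided by a constant of each liver, 14.7 to 20.0 in units of 1e6 reads, which is not its total count. Strandedness of the counting is not given in the sources used here, so reads of overlapping genes on opposite strands may not be told apart. The authors' own fold changes and p-values were not used.

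Groups follow the labels, and the replicate numbers do not pair the livers. The pairs of genotypes were compared with edgeR 4.0.16 in R 4.3.3 by the quasi-likelihood test, with TMM normalization, filterByExpr within the 8 livers compared, two-sided p-values and Benjamini-Hochberg adjustment over all genes tested. The threshold was an adjusted p of 0.05. CPM use TMM factors over all 12 livers, and list medians are over the genes tested. Alternatives were DESeq2 1.42.0, RLE normalization, other filters and a fit of all 12 livers. Others were the replicate number as a block, only livers with Y-linked counts, and leaving out each liver. In SKO against WT the fit of livers with Y-linked counts is that without SKO replicate 3. In DKO against WT it is that without DKO replicate 4. On simulated counts of SKO against WT, DKO against WT and DKO against SKO, edgeR recovered 100, 97 and 97 of 100 genes changed 4-fold. Of 100 changed 2-fold it recovered 51, 57 and 63, and it made 6, 9 and 11 false calls in all. The simulation set the spread between livers by assumption, had no outlying liver and changed only genes above a minimum count. These counts therefore check the fit and do not give the share found in the real livers. No pair of livers of a genotype agreed within sampling noise (chi-square over its degrees of freedom at least 18.5). The tests take the livers as independent animals, which the labels do not state. If animals of a genotype are related, the p-values could be too small. Intervals and floors cover counting error only.

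The 10 genes, the lists and the named-gene rule were chosen with earlier results of these data known. The rule named all 10 genes, the members of the lists that passed or that touch a role of the 10, the 3 genes of mean CPM at least 1 most like each, overlapping genes and pseudogenes. Some genes of the lists are counted in them but are not reported here by name.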

Additional observations from a re-analysis of the deposited data

Results flagged for a closer look

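Of 30 values tested, 10 genes in 3 genotypes, 2 had a liver far from the other 3 of its group by Dixon's test, and chance alone flags about 5% of groups. Fabp3 in WT replicate 4 was at 0.221 CPM, against 0.0520 to 0.0652 CPM in the other WT livers, which is a difference of 4 counts against 1. Slc27a1 in WT replicate 4 was at 88.5 CPM, against 35.5 to 42.9 CPM in the other WT livers.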

How the results depend on the processing

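In SKO against WT the number of the 10 genes called stayed within 1.5 times of 6 in all settings. In DKO against WT, where 3 were called, it was 5 with DESeq2, 5 without a filter on low counts (both with Fabp3, which then has a test), 6 with only livers with Y-linked counts, and 1 to 6 when each liver was left out in turn. The 6 came without DKO replicate 4, which is the same fit as with only livers with Y-linked counts. In DKO against SKO it was 1 with DESeq2 in place of 0. All genes called in DKO against WT moved from 1510 to 2508 with DESeq2, to 5253 without DKO replicate 4 and to 244 to 719 without any other liver. In DKO against SKO they moved from 3 to 91 with DESeq2, 35 without the filter, 21 with only livers with Y-linked counts, and 0 to 15 when each liver was left out. DESeq2 tests more genes at low counts. The replicate number gave no pairing (same-number correlations -0.43 to 0.16, and 2 of 12 livers best matched by number), and with it as a block all genes called were 691 in DKO against WT and 0 in DKO against SKO, and Fabp2 in DKO against WT was at log2 1.05 with an adjusted p of 0.056. As a single gene, Fabp4 in DKO against WT missed the threshold in the fit of all 12 livers (1.29, adjusted p = 0.051), where Slc27a4 passed it (1.11, adjusted p = 0.039).

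Over all settings, 394 gene values kept direction and call, 12 gained and 16 lost the call, and 13 changed sign, all of them in genes that were not called. In DKO against WT these were Fabp5 (-0.16 with the block, -0.69 with only livers with Y-linked counts, -0.69 to 0.32 when each liver was left out), Fabp7 (-0.19 to 0.20) and Slc27a2 (-0.0077 to 0.14). In DKO against SKO it was Fabp5 (-0.97 to 0.060). The causes were not tested. Counts per kilobase scaled by the total count lowered the WT level to 2638 for Fabp1, 82.6 for Fabp2 and 594 for Slc27a2, by the construction of the deposited FPKM. Depth limits Fabp3 in WT livers, with 1 to 4 counts.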
